A study of Mus musculus with 4 samples.

Results

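Divergent bidirectional coding promoters are stretches of DNA from which 2 protein-coding genes are transcribed in opposite directions, away from each other. A pair was 2 coding genes on opposite strands whose annotated starts lay at most 1 kb apart, with the start of the minus-strand gene upstream of that of the plus-strand gene. The members were chosen by measured values of both lists: a member was a KO peak on an autosome that shared at least 1 bp with a WT peak and whose summit lay within 1 kb of both starts. By this rule, 650 of the 28978 shared KO peaks (2.24%) were members, out of 36600 KO peaks on the autosomes. They served 667 of 734 divergent pairs and 1316 genes. Of the members, 632 served 1 pair and 18 served 2 pairs, and 1 pair had 2 members.

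The study profiled open chromatin by ATAC-seq, which uses a transposase to cut and tag accessible DNA, in hematopoietic stem cells (HSCs) from the bone marrow of adult C57BL/6 mice. Both genotypes carried the floxed Med23 allele, spelled Med23floxp/flowp in the labels. WT mice had no cre, and KO mice also carried Mx1-cre, whose promoter responds to interferon and is active in blood cells and in other tissues. The labels give 2 samples for each genotype and 1 peak list for both, so none of the values below has a replicate check and no p-value is given. The mice had been given poly(I:C) to induce the deletion, according to the study's methods, and the cells were sorted as LSKsCD150+CD34-CD48- in the labels, while the methods give the same sort without CD34.

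Genes placed head to head share a nucleosome-depleted stretch between their starts, and polymerase loads on both of its edges. Such promoters are known to be rich in CpG dinucleotides, poor in TATA boxes and common among housekeeping genes of DNA repair, mitochondria and chromatin. Med23 is a subunit of Mediator, the complex that links transcription factors bound at enhancers and promoters to RNA polymerase II.

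The stretch between both starts is shown for the textbook pairs of this length, because it is the DNA that both genes share. Each sequence is the plus strand of mm10 (GRCm38.p6), read 5′ to 3′ from the base after the minus-strand start to the base before the plus-strand start, and belongs to no exon of either gene as annotated. Capitals mark the letters of a motif of the set described further on, on either strand.
Brca1 and Nbr1, chr11:101551956-101552148: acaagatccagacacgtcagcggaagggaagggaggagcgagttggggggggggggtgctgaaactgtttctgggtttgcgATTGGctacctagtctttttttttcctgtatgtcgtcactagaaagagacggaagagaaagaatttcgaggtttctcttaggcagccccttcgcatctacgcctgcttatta
Mrps12 and Sars2, chr7:28741821-28741991: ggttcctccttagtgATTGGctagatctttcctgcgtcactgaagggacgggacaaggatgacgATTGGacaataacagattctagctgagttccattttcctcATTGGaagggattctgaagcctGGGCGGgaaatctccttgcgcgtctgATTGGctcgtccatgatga
Brca1, which repairs double-strand breaks by homologous recombination, faces Nbr1, an autophagy receptor. Their stretch of 193 bp held 1 CCAAT box, read as ATTGG, and had a GC content of 50.3%. Sars2, the mitochondrial seryl-tRNA synthetase, faces Mrps12, a protein of the small mitochondrial ribosomal subunit. Their stretch of 171 bp held 4 CCAAT boxes, all read as ATTGG on this strand, and 1 SP1 motif.

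Accessibility is given as the summit pileup, the number of fragments or reads stacked at the summit of a peak, recovered from the deposited fold enrichment and −log10 p. Med23 itself (chromosome 10, 24869986 to 24913681) was in no divergent pair, and its promoter peak had a pileup of 64 in WT and 85 in KO, a value that does not check the deletion. The median pileup of all peaks was 18 in WT and 19 in KO, and read totals are unknown. Of 6 stem cell markers, Kit and Hlf had a promoter peak in both lists, and Ly6a, Slamf1, Mecom and Procr had none within 1 kb of their gene start. The 3 T cell and 3 B cell markers had no promoter peak, while 1 of 4 granulocyte and macrophage markers, 2 of 3 erythroid markers and 3 of 3 megakaryocyte markers had one in both lists. The part of other cell types in the results was not tested.

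Nearly all divergent pairs had a peak in both lists. A shared peak was found at 667 of 734 pairs, a share of 90.87% (95% Wilson interval 88.57 to 92.75). Of 659 KO peaks with a summit in range of a pair, 650 (98.63%) overlapped a WT peak, against 79.2% of all KO peaks on the autosomes. Overlap was part of the rule, so nothing is read from this share. Intervals of shares cover counting over regions, pairs or genes, which are not replicates.

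The pairs without a shared peak were few and mixed. A KO peak with no WT overlap stood at 8 pairs, with KO pileups of 12 to 23, and a WT peak with no KO overlap at 12 pairs, with WT pileups of 7 to 23. These were low values beside the members' median of 45. Among the 12 were Emc3 and Fancd2, the latter a Fanconi anemia protein that marks stalled replication forks, with a WT pileup of 11. At 3 further pairs, Mepce and Zcwpw1, Sox6 and 1110004F10Rik, and Wrap53 and Trp53, the WT summit was in range and the summit of the overlapping KO peak was not. At 4 pairs a peak lay over the interval between the starts but its summit was farther than 1 kb from a start: Sirt1 and Dnajc12, Psmb1 and Tbp, Smim7 and Tmem38a, and Haghl and Ccdc78. These pairs are named for their small number, after their values were seen. No peak touched the interval between the starts at the other 40 pairs (5.45%). Histone pairs with near-identical copies were among them, where reads may not map uniquely.

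Members were more accessible in the median than coding promoters outside the head-to-head classes. Their median KO pileup was 45 (95% interval of the median from order statistics 42 to 49, quartiles 27 and 69), and their median WT pileup was also 45 (43 to 49, quartiles 28 and 68). Peaks at a coding start outside the head-to-head classes given here are called coding starts alone. Starts that a noncoding start faces with overlap, or whose facing start lies beyond the limits of the rule, can still be among them. Coding starts alone had a median of 32 in KO (31 to 33, n = 8369) and 32 in WT (31 to 33). The quartile ranges of members and coding starts alone overlapped widely, so single members cannot be told from single promoters by pileup. Coding starts that face a noncoding gene had medians of 44 in KO and 43 in WT (n = 615), close to the members. Head-to-head coding pairs whose annotated starts overlap, a class added after the data were seen, had medians of 40 and 41.5 (n = 354). Peaks away from coding starts had medians of 20 and 18 (n = 18990). No class was tested against another.

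**Figure D1:**
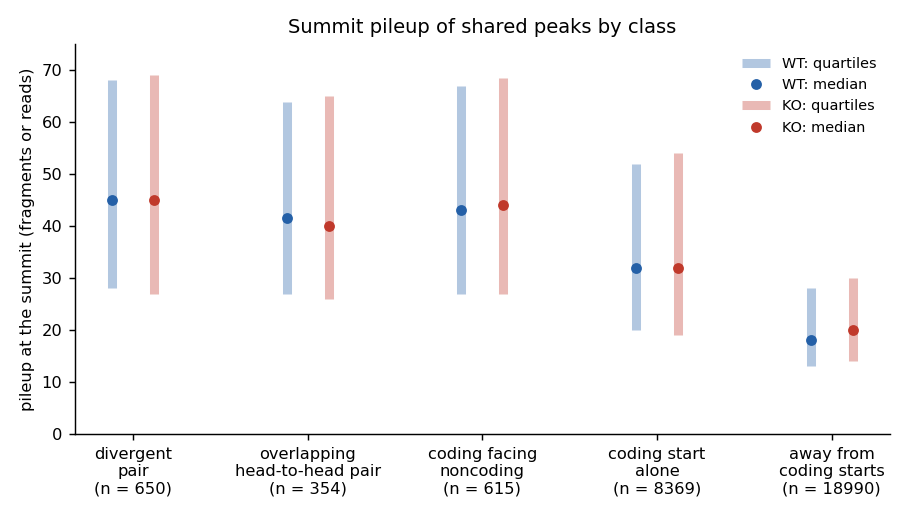
Summit pileup (fragments or reads) of shared KO peaks in 5 classes, WT in blue and KO in red, with points for medians and bars for quartiles. The members, at the left, had medians of 45 in both lists, and coding starts alone had 32 in both.

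The median member stood at percentile 80.6 of all shared peaks by KO pileup and at 82.3 by WT pileup. By KO pileup, 384 members stood above the upper quartile of shared peaks and 43 below the lower quartile. The members were also wider than coding starts alone. Their median KO width was 1022 bp, against 916 bp at coding starts alone and 607 bp away from coding starts. The other head-to-head classes were about as wide as the members. The median was 1034 bp at pairs with overlapping starts and 1025 bp at coding starts facing a noncoding gene. By the authors' fold enrichment over the local background, the members' median was 11.7 in KO and 9.46 in WT, against 9.63 and 8.19 at coding starts alone. Pairs with overlapping starts had 11.1 and 9.25, and coding starts facing a noncoding gene 11.0 and 8.89, nearer to the members. The local background itself was higher at members, with a median of 2.99 against 2.42 in KO, so the fold separated the classes less than the pileup did.

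The strongest and weakest members ranged from 9 to 373 in KO pileup. The highest stood at Hjurp, the chaperone that loads the centromeric histone CENP-A, and Trpm8, the cold-sensing ion channel, with 373 in KO and 384 in WT. Aasdhppt and Kbtbd3 had 298 in KO and 299 in WT. Pdcd10, a protein of the vessel-stabilizing CCM complex, and Serpini1, neuroserpin, had 239 in KO and 227 in WT. These 3 members kept their order in both lists. Zfp654 and Cggbp1 had 202 in KO and 196 in WT. Mphosph10, which acts in ribosomal RNA processing, and Mcee, a mitochondrial epimerase, had 194 in KO and 143 in WT. Of the 5, this pair had the largest departure between the lists, with a log2 KO to WT ratio of 0.53 (exact binomial interval 0.21 to 0.85).

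At the other end, 4 members had a KO pileup of 9. They were Gm10447 and Shroom1 with 11 in WT, Poll and Gm17018 with 12, Zcchc3 and 6820408C15Rik with 13, and Sart3 and Iscu with 24. Poll is a DNA polymerase of base excision repair, and Iscu is the scaffold on which iron-sulfur clusters are built. The fifth shown, Acyp1 and Zc2hc1c, had 10 in KO and 20 in WT. Other members tied with it at a KO pileup of 10, among them Zfp661 and Mrps5 with 13 in WT and Obsl1 and Inha with 17. These values lie near the lowest pileups that the peak caller kept, where counting error is large.

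**Figure D2:**
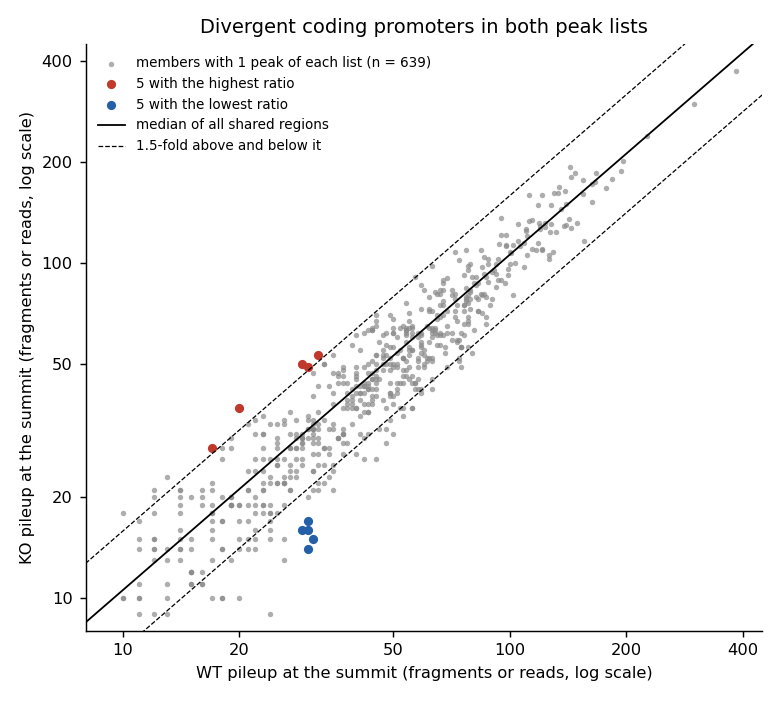
KO against WT summit pileup (fragments or reads, both axes logarithmic) of the 639 members with 1 peak of each list, with the 5 highest ratios in red and the 5 lowest in blue. The solid line is the median ratio of all shared regions, the dashed lines are 1.5-fold above and below it, and the spread around the line is widest at low pileups.

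The KO to WT ratio asks whether accessibility at these promoters differed between the genotypes. Where exactly 1 KO peak met 1 WT peak, it was taken as log2 of the KO over the WT pileup, each divided by its list's genome-wide background. Because members had to be present in both lists, these ratios are a description. The median over 639 members was 0.086 (0.057 to 0.086), and over 8132 regions at coding starts alone it was 0.086 (0.086 to 0.11). Every region with equal pileups in both lists has this value, so nothing is read from the match of both medians. The median was 0.17 over all 28119 such regions and 0.21 over 18406 away from coding starts. The members' SD across regions was 0.33, against 0.42 over all. The scale between the lists is uncertain: with raw pileups the members' median was 0.

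Few members departed from the median of shared regions. At least 1.5-fold above it were 10 members (1.57%), against 7.56% of all regions, and at least 1.5-fold below it were 48 (7.51%), against 7.92%. Coding starts alone had 3.19% above and 8.02% below. The members' higher pileups narrow their counting error, so these shares are not read against the background of all regions alone. In the middle tertile by summed pileup of both lists, from 34 to 62, 3 of 151 members (1.99%) were above and 21 (13.9%) below. Of all regions in this tertile, 9.15% were above and 9.04% below, and of coding starts alone 4.20% and 12.1%. The other head-to-head classes were close to the members, with 2.96% and 14.1% for starts facing a noncoding gene and 2.5% and 13.75% for overlapping pairs. The members' median log2 ratio there was 0.012, that of coding starts alone 0.035 and that of all regions 0.16. In the upper tertile the medians were 0.11 for members, 0.14 for coding starts alone and 0.18 for all regions.

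The binomial interval of the ratio, which covers counting error only, lay wholly above the median of shared regions at 7 members (1.10%), against 1.91% of all regions. It lay wholly below at 23 members (3.60%), against 1.54% of all regions. For coding starts alone the shares were 1.35% above and 2.30% below, and for head-to-head pairs with overlapping starts 1.15% and 3.17%. In the upper tertile by summed pileup, 3.90% of members lay below, beside 2.85% of coding starts alone and 2.50% of all regions. Higher pileups narrow this interval, so the members' shares are not read against those of all regions alone. Of the 48 members past 1.5-fold below, 15 had a summed pileup under 40, as had 4 of the 10 above.

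The members farthest from the median among the 551 with a summed pileup of at least 40 are named as a description. The highest ratio was at Ccs, the copper chaperone of superoxide dismutase, and Ccdc87, with 37 in KO and 20 in WT, a log2 ratio of 0.97 (0.15 to 1.84). Bloc1s3, a subunit of a lysosome-related organelle complex, and Trappc6a, of a vesicle tethering complex, had 50 in KO and 29 in WT (0.87, 0.18 to 1.58). Wdhd1, a replisome protein, and Socs4, of the family of cytokine signaling suppressors, had 53 and 32 (0.81, 0.15 to 1.49). In all 3 the KO value was the higher one, and each interval was wide. Tfpt, of the INO80 chromatin remodeler, and Prpf31, a splicing factor, had 28 in KO and 17 in WT (0.81, −0.11 to 1.77). S100a1 and S100a13, both calcium-binding proteins, had 49 and 30 (0.79, 0.11 to 1.5). At Bloc1s3 and Trappc6a the interval lay wholly above the median of shared regions, and at the other 4 pairs it held that median.

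The lowest ratio was at Cdc27, a subunit of the anaphase-promoting complex, and Myl4, a myosin light chain, with 14 in KO and 30 in WT, a log2 ratio of −1.01 (−2.04 to −0.054). Acd, the shelterin protein TPP1 of telomeres, and Pard6a, a cell polarity protein, had 15 in KO and 31 in WT (−0.96, −1.96 to −0.029). Inca1 and Kif1c, a kinesin motor, had 16 and 30 (−0.82, −1.80 to 0.10). These KO values lie below the members' lower quartile of 27. Zdhhc6, a palmitoyltransferase, and Vti1a, a SNARE of vesicle fusion, had 16 in KO and 29 in WT (−0.77, −1.75 to 0.16). Gm9922 and Lmo7 had 17 and 30 (−0.73, −1.68 to 0.17). The interval held the median of shared regions at this last pair and lay wholly below it at the other 4.

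The stretches between the starts of these pairs are shown for those 30 to 300 bp long, on the plus strand and with motifs in capitals as above, to set the promoters with the highest and lowest ratios side by side. Those with the highest ratio come first.
Ccs and Ccdc87, chr19:4839333-4839365: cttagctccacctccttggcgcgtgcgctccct
Wdhd1 and Socs4, chr14:47276858-47276930: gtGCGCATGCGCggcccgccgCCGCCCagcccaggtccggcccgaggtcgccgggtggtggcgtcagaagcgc
Tfpt and Prpf31, chr7:3629930-3629984: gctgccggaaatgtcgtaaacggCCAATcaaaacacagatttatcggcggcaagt
S100a1 and S100a13, chr3:90514393-90514434: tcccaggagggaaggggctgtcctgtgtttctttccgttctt
Those with the lowest ratio follow.
Cdc27 and Myl4, chr11:104550621-104550662: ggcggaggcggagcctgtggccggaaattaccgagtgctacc
Acd and Pard6a, chr8:105701103-105701147: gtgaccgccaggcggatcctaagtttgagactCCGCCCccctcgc
Zdhhc6 and Vti1a, chr19:55316033-55316294: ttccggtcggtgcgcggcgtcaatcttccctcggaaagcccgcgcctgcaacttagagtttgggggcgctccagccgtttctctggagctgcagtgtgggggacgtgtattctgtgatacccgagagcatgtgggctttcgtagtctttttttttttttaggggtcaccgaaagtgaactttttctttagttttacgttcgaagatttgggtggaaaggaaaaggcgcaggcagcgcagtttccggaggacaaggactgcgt
Gm9922 and Lmo7, chr14:101729815-101729956: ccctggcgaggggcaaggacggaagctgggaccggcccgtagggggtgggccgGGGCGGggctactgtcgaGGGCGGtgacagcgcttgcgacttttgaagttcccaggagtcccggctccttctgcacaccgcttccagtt
The pair with the most motif letters was Wdhd1 and Socs4, in which NRF1 matched on both strands of the same 10 letters. No motif was found between the starts of Ccs and Ccdc87, S100a1 and S100a13, Cdc27 and Myl4, or Zdhhc6 and Vti1a, which says only that these letters are not in these stretches.

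The textbook divergent pairs were nearly all accessible in both lists, but most did not meet the rule. Of 14 pairs fixed on a list, 4 were members. Prkdc, the catalytic subunit of the DNA-dependent kinase of end joining, and Mcm4, of the replicative helicase, had a KO pileup of 135 and a WT pileup of 142 at starts 466 bp apart, a log2 ratio of 0.013 (−0.34 to 0.36). Atm, the kinase that signals double-strand breaks, and Npat, the coactivator of histone genes, had 62 in KO and 64 in WT at 307 bp (0.040, −0.49 to 0.57). Brca1 and Nbr1 had 45 and 58 at 194 bp (−0.28, −0.88 to 0.31). Sars2 and Mrps12 had 61 in KO and 54 in WT at 172 bp (0.26, −0.29 to 0.82). All 4 intervals held 0 and the median of shared regions. At 9 more pairs the annotated starts overlap by 21 to 277 bp, which puts them outside the rule. All 9 had a shared peak, among them the chaperonin genes Hspd1 and Hspe1, with 53 in KO and 67 in WT. Polr3k and Snrnp25 were not such a pair in the annotation.

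Where the summit fell varied with the distance between the starts. The median distance was 127 bp over the pairs served (quartiles 65 and 238.5). The summit lay between both starts in 20.9% of the 282 combinations of member and pair with starts up to 100 bp apart, in 64.2% of 271 over 100 and up to 300 bp apart, in 78.7% of 61 over 300 and up to 500 bp, and in 72.2% of 54 over 500 and up to 1000 bp. A wider interval leaves more room for the summit. The median distance from the summit to the midpoint was 60.5 bp, 61.5 bp, 110.5 bp and 303 bp in the same order. With starts up to 100 bp apart most summits thus lay outside the interval between them, and with starts over 500 bp apart summits lay farthest from the midpoint. Over all combinations the signed median offset was −1 bp.

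**Figure D3:**
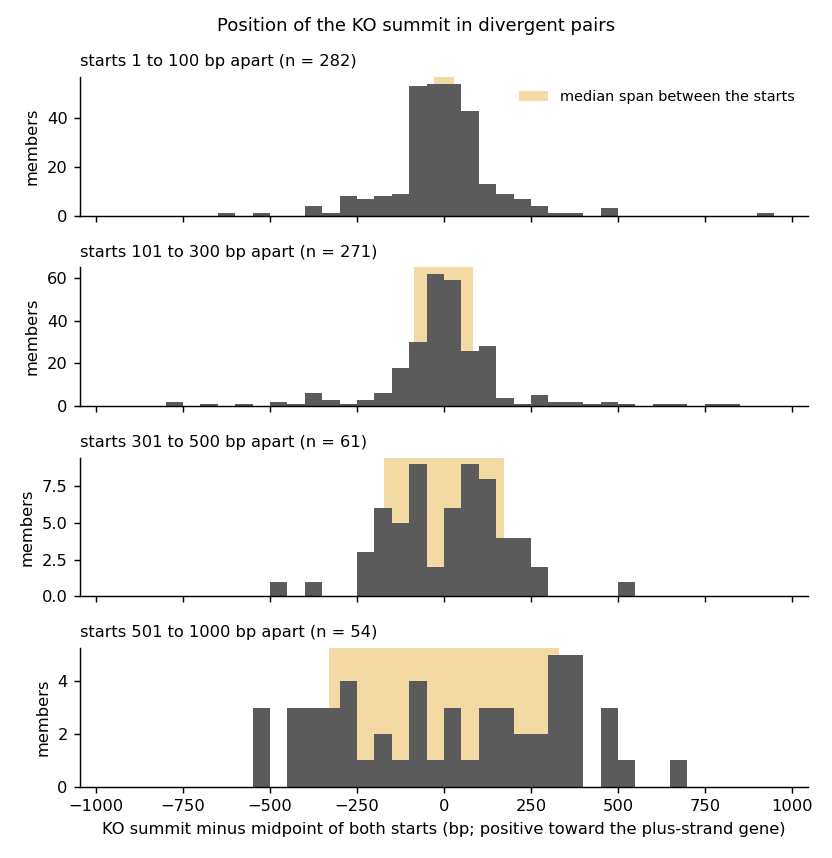
Number of combinations of member and pair by the offset of the KO summit from the midpoint of both starts (bp). A member that serves 2 pairs is counted once for each. The 4 groups are by the distance between the starts, with the median span between the starts shaded. The median distance from the midpoint was 60.5 bp in the first panel and 303 bp in the lowest.

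The KO peak covered both starts in 98.6%, 96.7%, 93.4% and 70.4% of combinations across the 4 groups of distance. The median KO width rose from 951.5 bp to 1024, 1111 and 1304 bp. The median KO pileup was 35, 53, 62 and 42, and the median WT pileup was 36, 53, 64 and 52. Pairs with the closest starts thus had the lowest median in both lists. A shared peak was found at 92.2%, 91.6%, 95.3% and 77.9% of pairs in the same order. The KO and WT summits of members lay 45 bp apart in the median, and 502 of 650 (77.2%) lay within 100 bp of each other, beside 71.2% at coding starts alone.

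The position of the summit relative to each start follows from the rule and from the distance between the starts, and is given as a description. It was 70 bp upstream of the plus-strand start and 73 bp upstream of the minus-strand start in the median, and upstream in 74.3% and 72.9% of combinations. At a coding start alone the median summit was 3 bp downstream, and 48.6% lay upstream.

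The ends of the rule are given once. The shortest distances were 1 bp at Bag4 and Lsm1 (53 in KO, 45 in WT), 1 bp at Slc7a6os and Prmt7 (32 and 30) and 4 bp at Bag5 and Apopt1 (25 and 29). The longest were 987 bp at Btf3l4 and Txndc12 (41 in KO, 51 in WT) and 978 bp at Zfyve26 and Rad51b (24 and 31). Just outside lay Sgsm2 and Tsr1 at 1011 bp (25 and 20), Dirc2 and Hspbap1 at 1019 bp (24 and 18) and Ushbp1 and Babam1 at 1059 bp (30 and 36). Pairs on both sides of this limit thus had pileups of the same order. By the distance from the summit to the farther start, Hist1h2bh and Hist1h3f (995 bp, 69 and 66), Ddx25 and Pus3 (959 bp, 31 and 27) and Ddias and Prcp (924 bp, 167 and 177) were just inside. Peg3 and Usp29 (1018 bp, 39 and 33), Smim7 and Tmem38a (1019 bp, 112 and 87) and Wrap53 and Trp53 (1044 bp, 17 and 23) were just outside.

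Sequence was not used by the rule beyond the position of the genes. In 200 bp around the KO summit, the members' median GC content was 63.5% (63 to 64.5), below the 66% of coding starts alone (65.5 to 66) and above the 50.5% of peaks away from coding starts. The ratio of observed to expected CpG dinucleotides had a median of 0.863, against 0.812 and 0.278. The members were thus slightly poorer in GC and slightly richer in CpG than coding starts alone. This CpG ratio was not particular to the members. It was 0.872 at pairs with overlapping starts and 0.869 at coding starts facing a noncoding gene.

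Motifs of 10 fixed kinds were searched by exact letters on both strands of the same 200 bp, and none of the words contains another. The ETS motif CCGGAAG, bound by GABPA and other ETS factors, was found at 146 members (22.5%, 19.4 to 25.8), against 13.2% of coding starts alone and 3.26% of peaks away from them. The NFY motif CCAAT was found at 39.8% (36.2 to 43.7), against 29.7% and 20.7%. Both stood above coding starts alone by more than the counting interval. The BANP motif TCTCGCGA was found at 27 members (4.15%, 2.87 to 5.98), against 1.59% and 0.10%, and the NRF1 motif GCATGCGC at 36 (5.54%, 4.03 to 7.57), against 3.37% and 0.674%. The YY1 motif AAGATGGC was found at 4.31% of members and 3.13% of coding starts alone, and ZNF143, ACTACAATT, at 0.923% and 0.454%. The remaining words were about as common in both classes: SP1, GGGCGG, at 62.0% and 61.0%, the E-box CACGTG at 8.62% and 7.65%, and CRE, TGACGTCA, at 2.92% and 2.88%. Of the 650 members, 75 held none of the 9 words other than TATAAA, and 263 held exactly 1 of them.

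**Figure D4:**
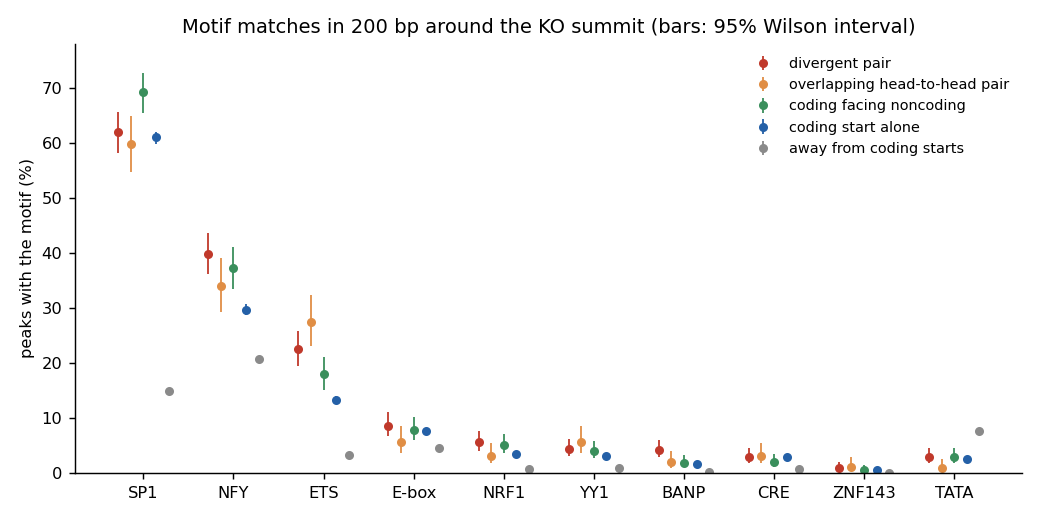
Share of shared KO peaks (%) with each motif in 200 bp around the KO summit, in 5 classes, with 95% Wilson intervals as bars. For ETS, NFY, BANP and NRF1 the members, in red, lie above coding starts alone, in blue, by more than the interval, and for SP1 they do not.

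The other head-to-head classes are given beside the members. Pairs with overlapping starts held ETS in 27.4% (23.0 to 32.3) and BANP in 1.98% (0.961 to 4.02). They held NFY in 33.9% (29.2 to 39.0) and NRF1 in 3.11% (1.74 to 5.48). Coding starts facing a noncoding gene held ETS in 17.9%, NFY in 37.2%, NRF1 in 5.04% and BANP in 1.79%. The members' intervals and those of the overlapping pairs overlapped for each of these motifs. Within the middle tertile of coding promoters by GC content, from 62 to 69.5%, ETS was found at 25.3% of members (20.3 to 31.0), 39.6% of overlapping pairs (31.7 to 48.0) and 16.4% of coding starts alone. There NFY was found at 37.5% of members (31.8 to 43.7) and 31.4% of coding starts alone (29.7 to 33.1). NRF1 was found at 4.74% (2.73 to 8.11) and 3.99% (3.34 to 4.75), and BANP at 5.14% (3.03 to 8.59) and 2.06% (1.61 to 2.64). For NFY and NRF1 these intervals overlapped, and for BANP they did not. The TATA box TATAAA in the window 20 to 40 bp before the gene start was found at 2 of 1316 genes served (0.152%, 0.0417 to 0.552), against 72 of 8321 genes with a start alone (0.865%, 0.688 to 1.09). In the 200 bp around the KO summit the members were not lower. TATAAA was found there at 2.92% of members (1.88 to 4.52) and 2.62% of coding starts alone (2.3 to 2.98).

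Among the members themselves, those with a CCAAT box had the higher pileups. Their median KO pileup was 62 (56 to 65, n = 259) and their median WT pileup 59, against 36 (32 to 41, n = 391) and 37 without it. The log2 ratio had a median of 0.13 with it (0.086 to 0.16) and 0.058 without it (0.012 to 0.086). CCAAT boxes also varied with the distance, at 28.0%, 50.2%, 55.7% and 37.0% of combinations across the 4 groups from the closest starts to the farthest, and their part in the order of the pileups by distance was not tested. ETS was found at 27.7%, 21.03%, 16.4% and 13.0% in the same order. Members with an ETS motif had a median KO pileup of 42, and those without it 47. By tertiles of GC content the median KO pileup was 49, 47 and 41. The median log2 ratio was 0.086 in each tertile, which is the value of equal pileups in both lists. Its intervals were 0.038 to 0.14, 0.041 to 0.13 and 0.012 to 0.086.

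The share of genes in a divergent pair was counted for lists of basic cell functions and of blood formation. Of 20807 autosomal coding genes, 1448 (6.96%) lay in a pair. The share was 26 of 99 (26.3%, 18.6 to 35.7) for genes of DNA repair and replication, 18 of 78 (23.1%) for mitochondrial ribosomal proteins, 22 of 90 (24.4%) for the respiratory chain and its assembly factors, and 9 of 28 (32.1%) for RNA polymerase subunits. Histones reached 27 of 80 (33.8%), with an H2A gene facing an H2B gene in most of their 11 pairs with a shared peak. Aminoacyl-tRNA synthetases and proteasome subunits had 5 of 38 each (13.2%), and cytosolic ribosomal proteins 9 of 79 (11.4%). Their intervals held the 6.96% of all genes. Of 64 hematopoietic regulators, 3 lay in a pair (4.69%, 1.61 to 12.9, which also holds the 6.96%), and they were Atm, Lig4 and Fancd2, which act in DNA repair. None of the 14 coding genes that the study names as changed in KO and none of 1087 olfactory receptors was in a pair. For the 14 the interval was 0 to 21.5%, which holds the 6.96%. The lists were not tested for enrichment.

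**Figure D5:**
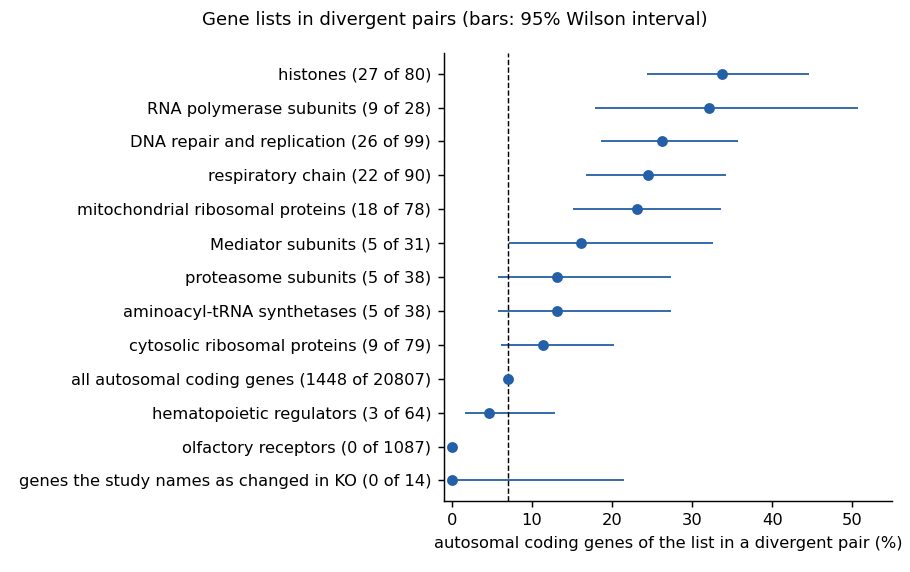
Share of the autosomal coding genes of each list that lay in a divergent pair (%), with 95% Wilson intervals, and the 6.96% of all genes as a dashed line. The whole intervals of histones, RNA polymerase subunits, DNA repair and replication, the respiratory chain, mitochondrial ribosomal proteins and Mediator subunits lie above the line. Of the genes named by the study 0 of 14 lay in a pair (0 to 21.5%), and that interval holds the line.

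In most lists nearly every gene of a pair had a shared peak, for example 25 of 26 for DNA repair and replication and 22 of 22 for the respiratory chain. Of all autosomal coding genes in a pair, 1316 of 1448 had one. Lower shares were found for the histones with 21 of 27 and for the RNA polymerase subunits and the cytosolic ribosomal proteins with 7 of 9 each. The proteasome subunits had 4 of 5 and the hematopoietic regulators 2 of 3. Most of these counts are small, and none was tested. KO pileups ranged from 13 to 186 at 23 members of DNA repair and replication, with medians of 47 in KO and 58 in WT. Region by region the order differed: the median log2 ratio was 0.15 over the 22 with 1 peak of each list, beside 0.086 over all members. Of these 22, 0 were at least 1.5-fold above the median of shared regions and 2 below, beside the 7.56% and 7.92% of all regions. Nothing is read from these counts. The highest summed pileup stood at Rpa3, a subunit of the single-strand binding protein, with 186 in KO and 167 in WT, a member that serves 2 pairs. Parp2, which senses strand breaks, and Ccnb1ip1 had 136 in KO and 95 in WT (0.60, 0.21 to 1.00). That interval lay above the median of shared regions, but the ratio was within 1.5-fold of it. Gins1, of the replicative helicase, and Abhd12 had 131 in KO and 105 in WT (0.40, 0.023 to 0.79). Xrcc3, which acts in recombination repair, and Zfyve21 had 120 and 111 (0.20, −0.19 to 0.58).

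Lig4, the ligase of end joining, and Abhd13 had 35 in KO and 73 in WT. Peaks there were not 1 to 1 between the lists, so the difference in pileup is not counted among the ratios. The histone members had KO pileups of 40 to 106 and WT pileups of 38 to 126, with a median log2 ratio of −0.049 over 8 regions. Reads from near-identical histone copies may have been split or dropped by the alignment, so these values are uncertain.

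Of 31 Mediator subunits, 5 lay in a divergent pair (16.1%, 7.09 to 32.6), all with a shared peak. Med19 and Gm28635 had 124 in KO and 127 in WT (0.051, −0.32 to 0.42). Med29 and Paf1, of the elongation complex PAF, had 76 and 54 (0.58, 0.057 to 1.11). Med20 and Bysl had 25 in both lists (0.086, −0.77 to 0.95). Of these 3, the one at Med29 had the largest ratio. Med22 and Rpl7a had 21 in KO and 16 in WT (0.48, −0.53 to 1.51). None of the 5 was 1.5-fold from the median of shared regions, and 5 values from 1 list each do not separate the genotypes.

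Across the autosomes, divergent pairs took the largest share of coding genes on chromosome 8, with 9.71% of genes and 48 members. The smallest share was on chromosome 18, with 3.90% and 9 members.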

How the data were processed

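ATAC-seq of 4 samples, 2 per genotype, was deposited as 1 peak list per genotype, and whether reads were pooled is not stated. By the submitters' processing notes, the authors used Trim Galore, Bowtie2, Picard and MACS2 on mm10, and versions are not given in the sources used here. Per peak the authors deposited the summit position, a display score (not used), the fold enrichment over local background, −log10 p and −log10 q. The deposited summit lists matched the peak lists at all 37919 WT and 37639 KO peaks.

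Pileup and background were solved from fold and −log10 p under the caller's Poisson model, and 99.99% of peaks matched within 0.001. A KO to WT ratio used pileups over the genome-wide background, the median of the 1000 smallest backgrounds (1.19 in WT, 1.13 in KO), without a pseudocount. Intervals of ratios are exact binomial, of shares Wilson, of medians from order statistics, all at 95%, and cover counting error only. Recovery and the rule were tested on simulated data. Gene starts and sequence were GENCODE M21 on GRCm38.p6, the build of the lists. The analysis used Python 3.11.15, numpy 2.4.6, pandas 2.3.3, scipy 1.17.1 and matplotlib 3.10.9. Samples were grouped by their labels.

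The members and lists were chosen with earlier results of these data known. Pairs named are the textbook pairs, pairs of Mediator subunits, hematopoietic regulators and DNA repair or replication genes (up to 6 per list, by summed pileup), the 5 highest and lowest KO pileups, the 5 highest and lowest ratios at a summed pileup of at least 40, and the ends of each limit, unless stated. A few pairs that this rule would name are not reported here.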

Additional observations from a re-analysis of the deposited data

How the results depend on the processing

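With 1 list per genotype, no replicate could be left out. No paired analysis was possible because the 2 samples of a genotype share 1 list. Read depth is unknown, and low pileups carry wide counting intervals. Other settings of the rule left 538 to 936 members, within 1.5 times the 650, from starts at most 300 bp apart to starts of coding transcripts. Keeping only peaks whose −log10 q reached 10 in each list, the share of pairs with a shared peak was 78.75% in place of 90.87%, the members' median pileup over that of coding starts alone was 1.20 in place of 1.41, and 4.90% of members were at least 1.5-fold below the median of shared regions in place of 7.51%. Against the median of all shared regions without the limit, the share of the kept regions 1.5-fold below was 5.08% for members and 4.23% for all. The cause of the changes with this limit was not tested. The same quotient was 1.21 by fold enrichment and 1.12 by width, and 1.41 by WT pileup, an alternative chosen after seeing the data.

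The members' median log2 KO to WT ratio was 0.086, 0 by raw pileups, 0.28 by fold enrichment and 0.012 in the middle tertile of summed pileup. Its difference from all shared regions was −0.082, and 0.021 by fold enrichment, which turns its sign. It was −0.15 in the middle tertile and −0.067 with the q limit. Below the median, 3.60% of members were 1.5-fold away by fold enrichment, 13.9% in the middle tertile and 0.78% at 2-fold, and 0% were 2-fold above it. In the middle tertile 9.04% of all regions and 12.1% of coding starts alone were below. Shares of all regions by fold enrichment and at 2-fold are not given here, so nothing is read from the members' shares under these settings. ETS motifs were found at 12.15% of members in windows of 100 bp and 32.9% in windows of 400 bp, beside 7.78% and 18.6% of coding starts alone, as more sequence holds more matches. Windows of 100 and 400 bp also moved the other motif shares past their intervals in 12 cases, among them NFY to 26.9% and 50.0%, SP1 to 41.7% and 79.1%, YY1 to 1.69% and 9.54%, NRF1 to 2.92% and the E-box to 4.77%. By the WT summit, 50.0% of summits lay between the starts in place of 47.9%.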
